A study of Mus musculus with 22 samples.

Results

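The mRNAs of 9 neuropeptide precursors were followed in the mouse spinal cord, those of Tac1, Tac2, Penk, Pdyn, Sst, Npy, Cck, Grp and Nts. They were chosen by name, as the rows that carry these symbols among the 21995 genes of the count table, and all 9 passed the filter on low counts in both comparisons. RNA was measured in whole spinal cords of 22 C57BL/6 mice, and the questions were which transcripts change with normal aging and which in a model of amyotrophic lateral sclerosis (ALS). Aging was followed in 8 young wild-type males of 3 to 4 months and 8 old wild-type males of 18 to 24 months, with libraries made with the Roche RNA KAPA Hyperprep kit. ALS was followed in 3 mice of genotype G93a, called SOD1-G93A here, and 3 wild-type controls, all of 5 to 6 months, with Illumina TruSeq libraries. The model mice express mutant human SOD1 from a high-copy transgene and had symptoms when they were taken, and each of these groups held 2 females and 1 male, with the sex of each library not given. The kit, the ages and the sexes therefore coincide with the experiment and cannot be told apart from it when the ALS and aging differences are set against each other.

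Neuropeptides are cut from larger precursor proteins by convertases, packed into dense-core vesicles and released to act on G protein-coupled receptors, more slowly and over longer distances than glutamate, GABA or glycine. In the spinal cord most of them mark small interneurons of the superficial dorsal horn, where they tune the passage of pain, itch and touch. Some are made by excitatory cells (Tac1, Tac2, Cck, Grp and Nts) and others largely by inhibitory cells (Pdyn, Npy), while Penk and Sst are found in several classes. Motor neurons, the cells lost in ALS, are not the main source of any of the 9. In bulk RNA of a whole cord, fewer cells of a type and less RNA per cell cannot be told apart.

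The precursors lie apart in the genome, apart from Tac1 and Npy on chromosome 6 and Tac2 and Nts on chromosome 10, which are far from each other on their chromosomes. In the GRCm38 build Tac1 spans chr6:7554879-7565834, Npy chr6:49822710-49829507, Tac2 chr10:127724478-127731768, Nts chr10:102481756-102490486, Penk chr4:4133531-4138819, Pdyn chr2:129686565-129699844, Sst chr16:23889573-23890958 and Cck chr9:121489824-121495694. Penk overlaps the non-coding gene A830012C17Rik on the other strand and Grp overlaps an antisense transcript, and the use of strand in counting is not given in the sources used here, so a part of their counts could come from those partners. The other members overlap no annotated gene.

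Promoter sequences were taken from RefSeq on GRCm38.p6 for 7 of the members, and the 250 bases upstream of the RefSeq transcription start are shown for Sst, the member that passed the test in ALS, and for Npy, which varied with Penk among mice. The letters searched were TGACGTCA, the cAMP response element (CRE), which reads the same on both strands, and its 5-base part TGACG on either strand, which overlaps it. The capitals mark the CRE, whose first base lies 48 bases upstream of the Sst start on the minus strand of chr16:23890845-23891094. The Npy stretch, on the plus strand of chr6:49822460-49822709, holds neither string. The RefSeq start of Sst lies inside the GENCODE gene, so that 114 of its 250 bases fall within the span given above, against 0 for Npy.
Sst: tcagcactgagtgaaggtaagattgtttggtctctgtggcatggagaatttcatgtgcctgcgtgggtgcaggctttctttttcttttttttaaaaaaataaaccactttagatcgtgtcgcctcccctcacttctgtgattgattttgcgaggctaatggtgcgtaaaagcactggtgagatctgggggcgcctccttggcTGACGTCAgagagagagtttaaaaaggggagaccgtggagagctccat
Npy: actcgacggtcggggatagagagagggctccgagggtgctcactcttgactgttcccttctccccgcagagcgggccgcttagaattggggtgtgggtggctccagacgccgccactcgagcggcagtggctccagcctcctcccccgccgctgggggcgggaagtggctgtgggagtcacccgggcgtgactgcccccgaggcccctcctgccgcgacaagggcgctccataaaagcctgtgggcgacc
Among the 8 promoters of these members, Sst alone held the full CRE, which 1.55% of 32851 RefSeq promoter stretches of the same length hold. The 5-base string was found in Tac1, Cck and Nts as well, and 17.8% of all stretches hold it. These matches describe the letters only.

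All members were measured well above the limit of detection, with Grp the lowest. Totals were 5078092 to 9358055 counts per young library, 5664869 to 9145600 per old library, 10693060 to 13219797 per control library and 9675610 to 11872431 per SOD1-G93A library. The fewest counts of any member in a library were 23, for Grp in an old mouse. Sod1, whose mutant human copy the model carries, read 156 to 168 counts scaled to library size (CPM) in the controls and 296 to 335 in the SOD1-G93A libraries, in the direction of the labels. Old library 6 stood apart, with the lowest correlation with its own group (median r of 0.9749) and with a summed CPM of 683 for microglial markers, where the other old libraries lay between 1024 and 1330. The aging fold changes of the members, the difference between the experiments, the correlations and the nearest genes of Penk and Npy are given with and without it.

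Per transcript length, Penk and Sst were the leading precursors in every group. In young cord the mean level was 126 ± 11.5 FPKM (fragments scaled to transcript length and library size, SD, n = 8) for Penk, the precursor of the enkephalins, and 108 ± 12.1 for Sst, the precursor of somatostatin. Together they held 32.6% and 27.9% of the FPKM summed over the 9 genes. Tac2 (neurokinin B) followed at 41.2 ± 6.82 FPKM and Cck (cholecystokinin) at 38.2 ± 2.23, then Tac1 (substance P and neurokinin A) at 24.6 ± 2.97 and Npy (neuropeptide Y) at 23.8 ± 2.75. Nts (neurotensin) at 11.3 ± 1.42 FPKM, Pdyn (dynorphins) at 7.26 ± 1.45 and Grp (gastrin-releasing peptide) at 6.00 ± 1.08 were lowest. Young libraries overlapped in range between Penk and Sst, Tac2 and Cck, Tac1 and Npy, Nts and Pdyn, and Pdyn and Grp, so those neighbours were not set apart, whereas Sst lay wholly above Tac2. Old cord kept this order except that Npy stood before Tac1, again with overlapping ranges. In old mice Penk, at 144 ± 16.6 FPKM, no longer overlapped Sst, at 100 ± 8.88. In the SOD1-G93A group Cck, at 22.9 ± 4.96 FPKM, ranked below Tac1, at 24.8 ± 4.78, and in the controls above it, at 31.6 ± 5.35 against 26.6 ± 3.03, with overlap in both groups. These ranks describe levels within a group and were not tested.

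**Figure D1:**
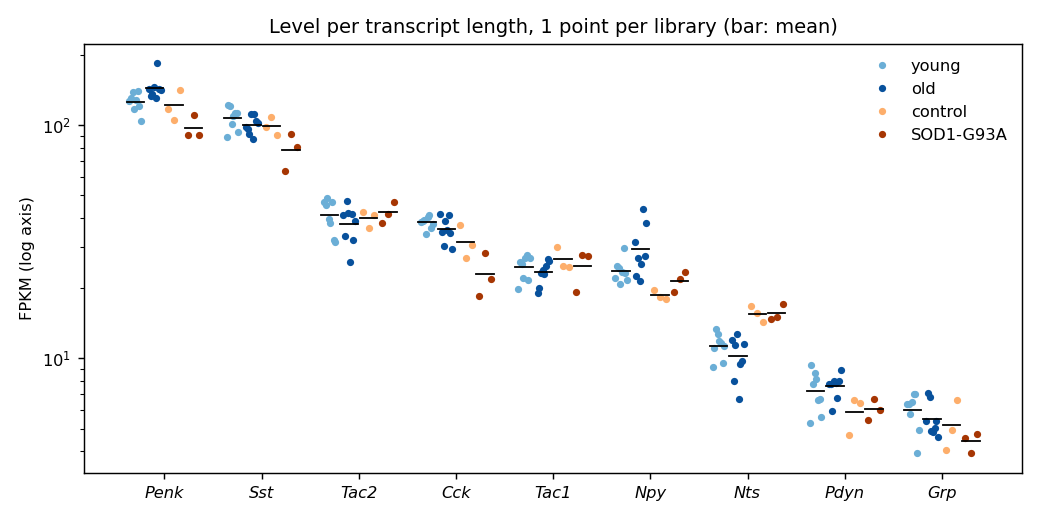
Level of each precursor per transcript length (FPKM, log axis), with 1 point per library and a bar at the mean for 8 young, 8 old, 3 control and 3 SOD1-G93A mice. Penk and Sst lie above the other 7 genes in every group, and Grp and Pdyn lie lowest.

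With age, no member passed the test. Of the 9 precursors, 0 had an adjusted p under 0.05 with edgeR's quasi-likelihood test, where 26.4% of the 13647 genes tested did. At an unadjusted p under 0.05 there were 2, Penk and Npy, beside 37.6% of all genes. With a log2 fold change beyond 1 as well there were 0, beside 2.22%. The old and young values of 0 members stood fully apart, as they did for 5.33% of genes, 3.66% higher and 1.66% lower with age. DESeq2 and limma also called 0. The members' median log2 fold change was -0.12, beside 0.00 over all genes tested, with 6 of 9 values below 0 beside 50.6% of all genes. The 95% intervals of the fitted differences together ran from -25.2%, for Grp, to 51.6%, for Npy, and that of each gene was narrower. Those of Penk (2.62% to 28.3%) and Npy (0.604% to 51.6%), not adjusted over genes, lay above 0. The intervals of the other members held 0.

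The opioid precursors were the first pair compared. Penk read 144 to 202 CPM in young mice with a median of 177, and 175 to 274 in old mice with a median of 201. The groups overlapped, but 3 old libraries lay above every young one and 7 of 8 lay above the young median. The fitted log2 fold change was 0.20 (SE 0.08, edgeR adjusted p = 0.0628), and the two-sided exact permutation test, unadjusted over 9 genes, gave p = 0.0367. Penk was past the threshold in 3 of 16 fits that each left out 1 library, and without old library 6, whose value of 274 CPM was the highest, the log2 fold change was 0.13 with an edgeR adjusted p of 0.114. Pdyn, whose dynorphins act at the kappa opioid receptor, read 13.5 to 23.8 CPM in young mice and 15.3 to 22.2 in old mice, with medians of 18.2 and 19.1. Every old value lay inside the young range, and the log2 fold change was 0.07 (SE 0.10, edgeR adjusted p = 0.661). Without old library 6 the Pdyn value was also 0.07 (edgeR adjusted p = 0.641).

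Npy, whose peptide dampens dorsal horn excitation, had the highest fitted value of the set and also the widest spread. It read 11.5 to 17.2 CPM in young mice with a median of 12.9, and 11.6 to 27.3 in old mice with a median of 15.7. The old coefficient of variation was 31.0% beside 13.2% in the young, and 3 old libraries lay above all young ones. The log2 fold change was 0.30 (SE 0.14, edgeR adjusted p = 0.121). Without old library 6, which held the top value here too, it was 0.17 with an edgeR adjusted p of 0.274. Sst, whose peptide is inhibitory though many of its dorsal horn cells are excitatory, read 53.8 to 74.1 CPM in young and 50.03 to 74.5 in old mice, with medians of 65.1 and 60.0. The ranges overlapped almost fully, and the log2 fold change was -0.10 (SE 0.08, edgeR adjusted p = 0.371). Without old library 6, which held the highest Sst value, it was -0.15 with an edgeR adjusted p of 0.120.

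The other 5 precursors were likewise short of the edgeR threshold with age. Tac1 read 18.7 to 25.0 CPM in young mice with a median of 22.7, and 17.4 to 24.7 in old mice with a median of 20.2. Most old values, 7 of 8, lay below the young median, while 3 lay below every young value. Its log2 fold change was -0.14 (SE 0.08, edgeR adjusted p = 0.186). Cck read 19.99 to 23.2 CPM in young mice with a median of 22.3, and 17.6 to 23.6 in old mice with a median of 19.3. Here 5 old libraries lay below all young ones and 1, old library 6, lay above them all. The log2 fold change was -0.14 (SE 0.07, edgeR adjusted p = 0.156), and the two-sided exact permutation test, unadjusted over 9 genes, gave p = 0.0486. Tac2 ranged from 21.3 to 33.6 CPM in young and from 16.8 to 33.2 in old mice, Nts from 11.99 to 17.5 and from 8.31 to 15.9, and Grp from 3.39 to 6.36 and from 4.02 to 6.19. Their groups overlapped, and their log2 fold changes were -0.12 for Tac2, -0.14 for Nts and -0.13 for Grp, with edgeR adjusted p of 0.509, 0.410 and 0.555. Without old library 6, Cck came nearest to the threshold, at -0.18 with an edgeR adjusted p of 0.0529. The others were then -0.16 for Tac1, -0.16 for Tac2, -0.15 for Nts and -0.13 for Grp. Their edgeR adjusted p were 0.139, 0.323, 0.388 and 0.542.

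**Figure D2:**
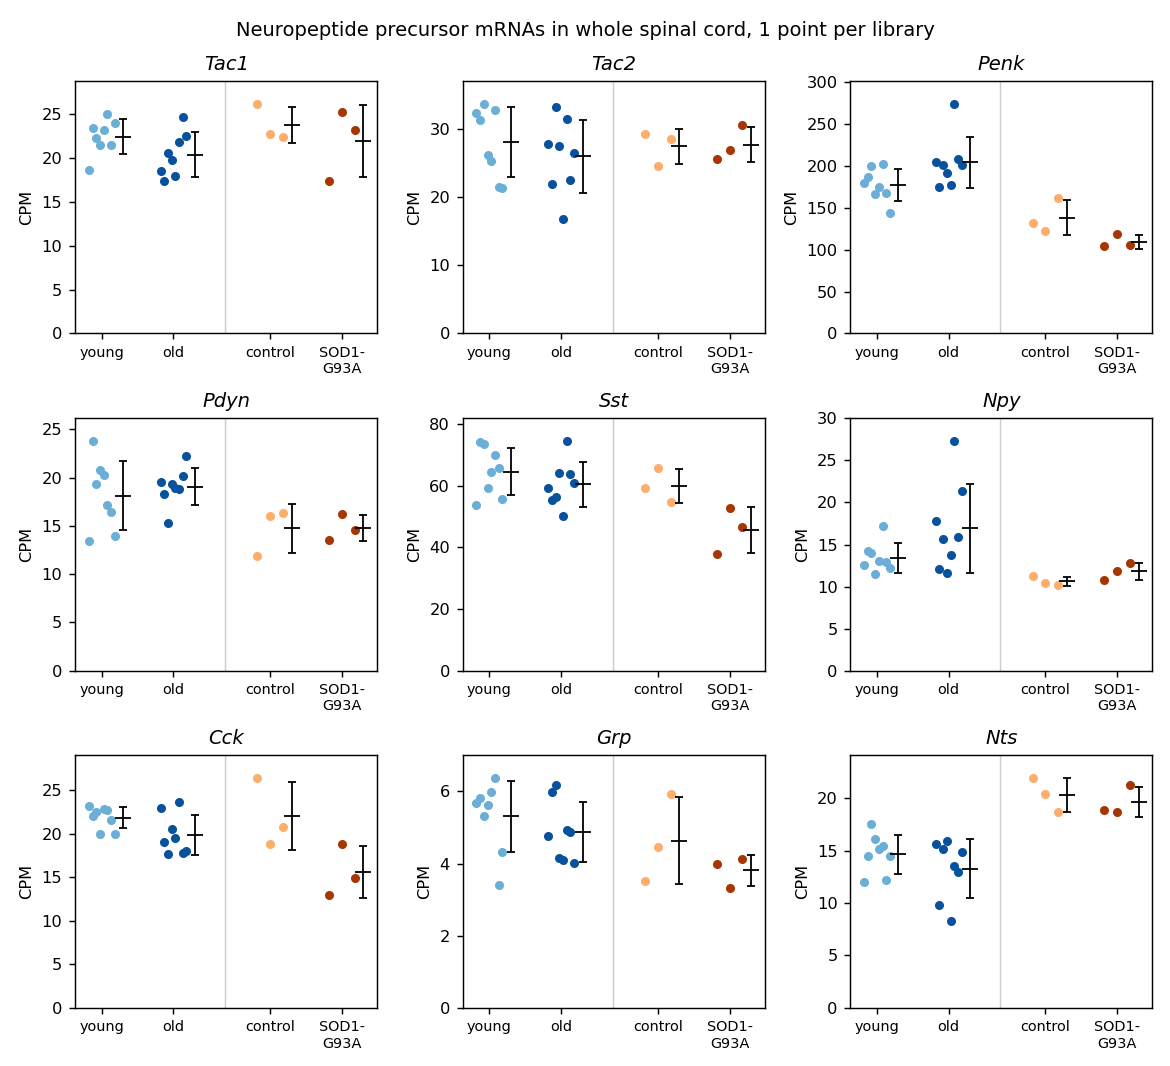
CPM of each precursor, with 1 point per library beside the group mean and SD (black), for young and old mice on the left of each panel and control and SOD1-G93A mice on the right. Old Penk reaches 274 CPM in 1 library, and the SOD1-G93A points of Penk, Sst and Cck lie below all control points.

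Other gene groups did move with age in the same libraries, where 13.5% of all genes were called higher and 12.9% lower. Microglial markers rose in 13 of 14 genes, Cd68 from 5.74 ± 1.59 to 53.3 ± 10.7 CPM (SD, n = 8 each), and the summed level went from 403 to 472 in young to 683 to 1330 in old libraries. Of the 20 pan-neuronal genes 7 fell and 2 rose, with a median log2 fold change of -0.06, and their summed CPM was 13704 to 14646 in young and 12532 to 14199 in old libraries. The part of these shifts in the members' values was not tested. Relative to the summed pan-neuronal counts, a scale on which the median gene sits 0.12 log2 units higher, 2 members, Penk and Npy, were past the threshold as higher, beside 26.9% of all genes higher and 2.85% lower, so that 2 of 9 is not above the background.

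In SOD1-G93A cord, 1 of 9 members passed the test, Sst, which fell. Of 14386 genes tested, 33.9% were called in either direction and 15.5% as lower, so 1 of 9 is no more than the background. With a log2 fold change beyond 1 as well, 0 members and 9.7% of genes were called. Another 2 members, Penk and Cck, had unadjusted p under 0.05, as 45.1% of all genes did, and the SOD1-G93A values of Sst, Penk and Cck all lay below the control values, a separation seen for 24.7% of genes tested (25.7% stood apart as higher and 50.4% in either direction). With 3 mice against 3 the two-sided exact permutation test cannot give less than p = 0.1, and it gave that for these genes. The members' median log2 fold change was -0.12, beside 0.00 over all genes, and the median size was 0.15 beside 0.29 over all genes. The 95% intervals ran from -46.5%, for Cck, to 38.8%, for Npy.

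Sst read 59.4, 65.7 and 54.9 CPM in the 3 controls and 37.8, 52.8 and 46.6 in the 3 SOD1-G93A mice. No SOD1-G93A value reached a control value. The log2 fold change was -0.39 (SE 0.13, edgeR adjusted p = 0.0455), which is a difference of -23.8% with a 95% interval of -37.9% to -6.52%. The fold change ran from -0.50 to -0.27 when 1 library was left out. The call was kept in 1 of 6 fits that left out 1 library, the one without SOD1-G93A library 2, where the adjusted p was 0.00569, and the largest of the 6 was 0.160, without control library 2. DESeq2 called Sst, Penk and Cck, while limma on log2 FPKM called 0 members. The shares of all genes that these 2 tools called are not given here.

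Penk and Cck came close to the threshold from the same side. Penk read 132, 122 and 161 CPM in the controls and 104, 119 and 106 in SOD1-G93A mice. The lowest control and the highest SOD1-G93A value were close, and the groups did not overlap. Its log2 fold change was -0.34 (SE 0.12, edgeR adjusted p = 0.0563), and -0.21 without control library 3. Cck read 26.4, 18.9 and 20.7 CPM in the controls and 12.96, 18.8 and 14.9 in SOD1-G93A mice, again without overlap by a narrow margin. Its log2 fold change was -0.50 (SE 0.18, edgeR adjusted p = 0.0565). Both were past the threshold without SOD1-G93A library 2, at 0.0187 for Penk and 0.00967 for Cck, and neither was without any of the other 5 libraries.

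The remaining 6 precursors overlapped between the groups and passed no test. Npy read 11.2, 10.4 and 10.2 CPM in the controls and 10.8, 11.9 and 12.8 in SOD1-G93A mice, with 2 of 3 above every control, and a log2 fold change of 0.15 (SE 0.14, edgeR adjusted p = 0.426), or 0.10 without SOD1-G93A library 3. Tac1 read 26.2, 22.7 and 22.4 CPM against 17.4, 25.3 and 23.2, with 1 SOD1-G93A mouse far below the rest, and a log2 fold change of -0.12 (SE 0.15, edgeR adjusted p = 0.582). Tac2 read 29.2, 24.5 and 28.4 CPM against 25.5, 26.9 and 30.5, and its log2 fold change was 0.01 with an edgeR adjusted p of 0.940. These 3 genes showed no ordered separation of the groups. Nts read 21.9, 20.4 and 18.7 CPM against 18.9, 18.7 and 21.3, Pdyn 11.9, 15.996 and 16.4 against 13.6, 16.2 and 14.6, and Grp 3.51, 4.46 and 5.92 against 3.98, 3.32 and 4.12. Their log2 fold changes were -0.05 for Nts, 0.00 for Pdyn and -0.29 for Grp, with edgeR adjusted p of 0.786, 0.999 and 0.415. The interval of Grp, which has the fewest counts, ran from -44.9% to 22.1%, and its log2 fold change was -0.45 without control library 1 and -0.07 without control library 3.

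**Figure D3:**
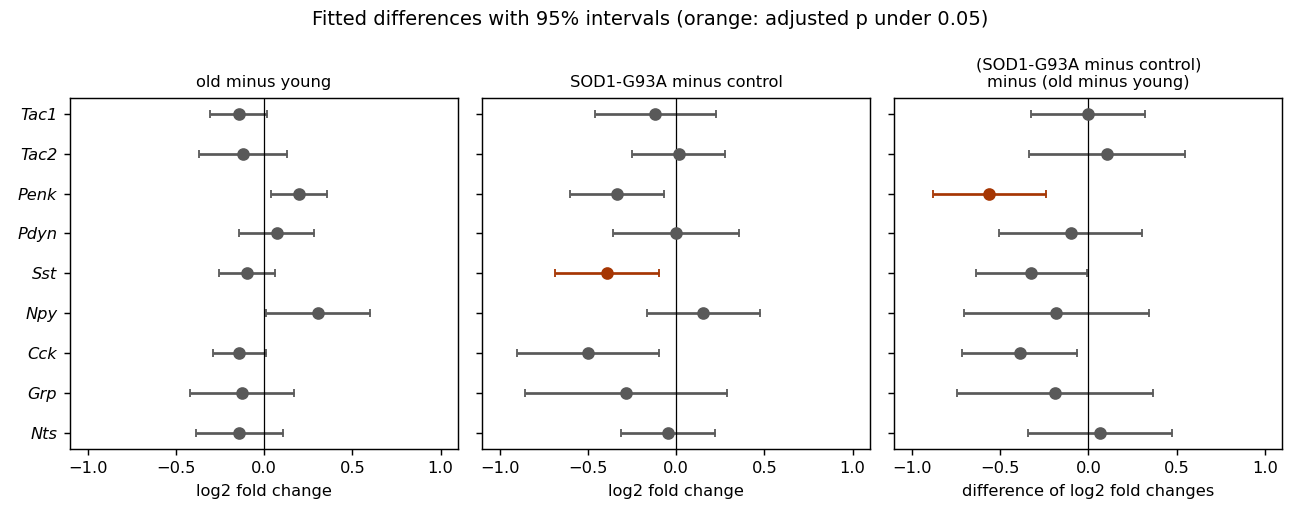
Fitted log2 fold change of each precursor with its 95% interval, for old minus young mice (left) and for SOD1-G93A minus control mice (middle). The right panel gives the difference between the changes, estimated in 1 fit of all libraries. Sst in ALS at -0.39 and Penk in the difference at -0.56 are the only values with an adjusted p under 0.05.

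Markers of several cell types moved in the SOD1-G93A cords, where 18.4% of all genes were called higher and 15.5% lower. The summed pan-neuronal level was 15862 to 16414 CPM in controls and 8202 to 12389 in SOD1-G93A libraries, and 16 of 20 pan-neuronal genes fell and 1 rose (Gap43, a growth-associated protein, with a log2 fold change of 0.35, named after its values were seen and short of the threshold without any 1 of the 3 controls or SOD1-G93A library 3), with a median log2 fold change of -0.59 (Nefm, a neurofilament subunit, -1.42, and Tubb3, neuronal tubulin, -0.60). Microglial markers rose in 12 of 14 genes, from a summed 422 to 509 CPM to 1964 to 3823, and astrocyte markers in 7 of 11, from 6461 to 7086 to 12587 to 19226. Motor neuron markers fell in 9 of 14, Chodl from 36.04 ± 1.22 to 4.04 ± 0.452 CPM (SD, n = 3 each). The summed members went from 300 to 334 CPM to 243 to 301. SOD1-G93A library 2, without which 3 members were called, had the lowest microglial and the highest pan-neuronal sum of its group, and SOD1-G93A library 1, which held the lowest Penk, Sst, Cck and Tac1 of the experiment, had the lowest pan-neuronal sum, a Schwann cell marker sum of 258 CPM (the other 5 libraries of this experiment, 68.7 to 120) and a caudal Hox gene sum of 12.1 CPM (the other 5, 39.995 to 87.3). The part of these shifts in the members' values was not tested.

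The direction of the members in ALS depended on the scaling. When library sizes were set by the summed pan-neuronal counts, which moved the median of all genes by 0.77 log2 units, no member was lower and 6 of 9, Tac1, Tac2, Penk, Pdyn, Npy and Nts, were past the threshold as higher, where 76.2% of all genes were called higher and 0.389% lower, so that 6 of 9 is not above the background. Sst then had a log2 fold change of 0.35 (edgeR adjusted p = 0.0545) and Cck of 0.23 (edgeR adjusted p = 0.297). Relative to that shift of the median gene, the members' median of 0.62 was still below it. The fall of Sst is thus relative to the bulk of genes in the cord. Per pan-neuronal RNA its sign was opposite, but its 0.35 still lay below the 0.77 of the median gene.

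Set against each other in one fit, the ALS and aging differences of Penk relative to the bulk of genes were unlike. In the separate fits Penk had a log2 fold change of 0.20 with age and of -0.34 in ALS. The difference of the changes, estimated in the fit of all libraries, was -0.56 (SE 0.16, edgeR adjusted p = 0.00876). Of the 14502 genes in that fit 25.8% were called, 14.2% as lower, with 4.81% called beyond a log2 difference of 1 and 37.1% at an unadjusted p under 0.05, where the members numbered 0 and 3. Without old library 6 the Penk difference was -0.45 with an edgeR adjusted p of 0.0125, and it was past the threshold in 21 of 22 fits that left out 1 library, the exception being control library 3 at 0.0545. No other member was called, so 1 of 9 is no more than the background. Cck had a difference of -0.39 (adjusted p = 0.0722), which ran from -0.56 without SOD1-G93A library 2 to -0.24 without control library 1 and was called in 2 of 22 fits. Sst had a difference of -0.32 (adjusted p = 0.126), which ran from -0.45 without SOD1-G93A library 2 to -0.19 without SOD1-G93A library 1 and was called in 1 of 22. The remaining 6 lay between -0.19 and 0.10. Without old library 6 the difference was -0.31 for Cck, -0.23 for Sst, 0.19 for Tac2 and -0.0060 for Npy, where it had been 0.10 for Tac2 and -0.18 for Npy, and the members' median went from -0.18 to -0.06. Kit, age and sex differ along with the experiment, so they cannot be told apart from this difference. Relative to summed pan-neuronal counts, Penk was higher both with age (log2 fold change 0.32) and in ALS (0.42). The Penk difference was not tested on that scale.

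Among mice of one age, several precursors varied together. Over the 16 aging mice, deviations of log2 CPM from the group mean were correlated for 36 pairs, and 34 of the correlations were positive. After adjustment over the pairs 3 passed, all with Penk. Penk and Npy had a Pearson r of 0.80 (permutation p = 0.00022, adjusted 0.00792) and a Spearman rho of 0.78 (permutation p = 0.00048, adjusted 0.0173). Penk and Sst had an r of 0.78 (permutation p = 0.00097, adjusted 0.0175) and a rho of 0.74 (permutation p = 0.00271, adjusted 0.0325), and Tac2 and Penk an r of 0.72 (permutation p = 0.00343, adjusted 0.0412) and a rho of 0.77 (permutation p = 0.00135, adjusted 0.0243). Leaving out the 2 mice farthest from the median of the first gene gave r of 0.73, 0.66 and 0.62. Within the young and the old mice alone, r was 0.76 and 0.86 for Penk with Npy, 0.69 and 0.86 for Penk with Sst, and 0.88 and 0.62 for Tac2 with Penk. Without old library 6 the r were 0.64, 0.69 and 0.75, and only Tac2 with Penk stayed past the adjusted threshold (permutation adjusted p 0.0781, 0.0781 and 0.0374). Over the 16 sets that left out 1 mouse, Tac2 with Penk passed in 8, with an r of 0.67 without young library 8, and Penk with Npy and Penk with Sst each passed in 15. With the deposited log2 FPKM in place of log2 CPM, 0 pairs passed the adjustment, 5 had an unadjusted p under 0.05, and 28 of 36 were positive. These libraries share depth and cord composition, whose part in the correlations was not tested. The same shares for pairs of other genes are not given, so the co-variation is not shown to be particular to the precursors.

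**Figure D4:**
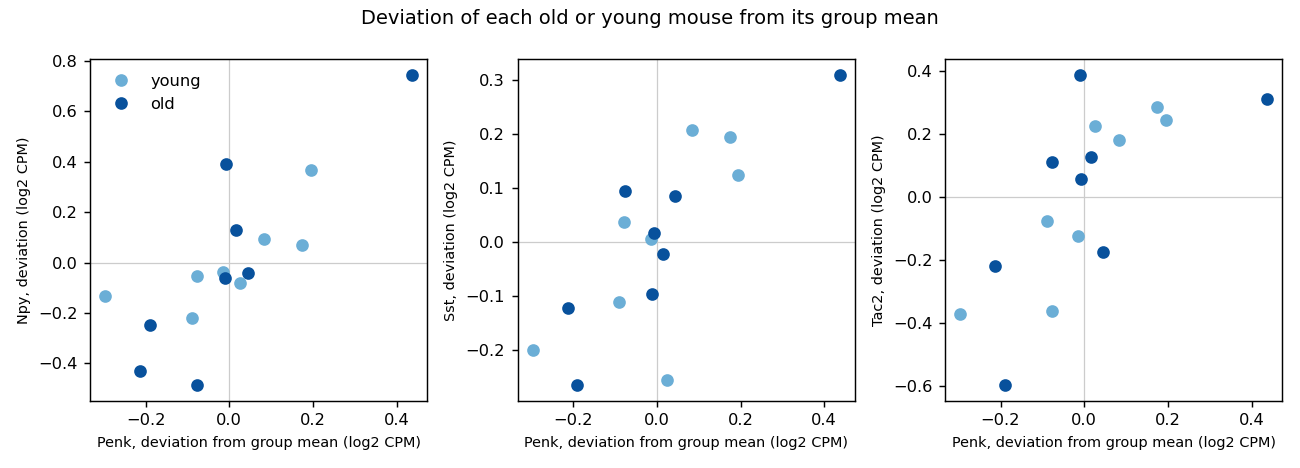
Deviation of each young or old mouse from its group mean (log2 CPM) for Penk on the horizontal axis and Npy, Sst or Tac2 on the vertical axis. The 16 points rise together in each panel, with r of 0.80, 0.78 and 0.72, and 1 old mouse lies at the far right.

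Over all 22 libraries, with group means removed, the genes closest to each precursor among 13646 others were found as a description. Penk was most like Shank1, a postsynaptic scaffold (r = 0.89), then Dnajc8 (0.87) and Zbtb10 (0.85), and without old library 6 these were 0.81, 0.79 and 0.76. Npy was nearest to 2510009E07Rik (0.90), Vamp2, a synaptic vesicle protein (0.87), and Ywhae (0.86), and without that library they were 0.85, 0.77 and 0.74. Sst had Plk2 (0.83), Neurod6, a neuronal transcription factor (0.82), and Nrsn2 (0.79) as neighbours. The nearest genes of the others were Spg20 for Tac1 (0.81), Mrps18b for Tac2 (0.82), Cacng5 for Pdyn (0.73), Creb5 for Cck (0.77), Atxn2l for Grp (0.79) and Sub1 for Nts (0.74).

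Of the receptors of these peptides, 1 passed the test with age and 6 in ALS. With age 1 of 16 tested receptors fell and 0 rose, beside 12.9% and 13.5% of all genes. It was Oprd1, the delta opioid receptor for enkephalin, from 10.8 ± 1.43 to 8.06 ± 1.63 CPM (SD, n = 8 each; log2 fold change -0.43, edgeR adjusted p = 0.00837), and 2 receptors were lower without any one of young libraries 1 and 7 and old libraries 2, 5, 6 and 7. In SOD1-G93A cord 6 of 17 fell and 0 rose, beside 15.5% and 18.4% of all genes, with a median log2 fold change of -0.48 over the 17 and of 0.00 over all genes. Oprd1 went from 10.4 ± 1.08 to 3.51 ± 1.62 CPM (SD, n = 3 each), a log2 fold change of -1.57 (edgeR adjusted p = 0.00492). Tacr1, the substance P receptor, fell by 0.71 on the log2 scale, Npy5r by 0.81, Oprk1, the dynorphin receptor, by 0.66, Cckbr by 0.54 and Sort1, which also binds neurotensin, by 0.35, with edgeR adjusted p of 0.0159 to 0.0226. These directions are relative to the bulk of genes: on the pan-neuronal scale, which lifts the median gene by 0.77, the signs of Tacr1, Oprk1, Cckbr and Sort1 turned and those of Oprd1 and Npy5r did not. Left-out libraries moved the count of lower receptors between 1 (without control library 2 or SOD1-G93A library 3) and 10 (without SOD1-G93A library 2). Ntsr2, at 148 ± 2.95 CPM in the controls and 178 ± 25.5 in SOD1-G93A mice, was not past the threshold (edgeR adjusted p = 0.0967). Oprm1, the mu opioid receptor, and Grpr, the receptor of gastrin-releasing peptide, were near 1 to 2 CPM in every group, with group median counts of 7 to 21, and passed no test.

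Genes of peptide processing and dense-core vesicles moved in both directions. With age 2 of 16 rose and 4 fell, beside 13.5% and 12.9% of all genes. Scg5, a chaperone of the convertase Pcsk2, rose from 127 ± 7.53 to 147 ± 15.4 CPM, and Scg2 fell by 0.29, Cadps by 0.17 and Ptprn2 by 0.21 on the log2 scale. In ALS 2 rose and 9 fell, beside 18.4% and 15.5% of all genes. Cpe, which trims peptide ends, rose from 1036 ± 31.8 to 1416.5 ± 103 CPM and Scg3 from 275 ± 11.1 to 512 ± 77.5, whereas Chga fell from 326 ± 8.88 to 185 ± 46.0 and Ptprn2 from 124 ± 5.29 to 77.5 ± 12.7 (SD, n = 3 each). On the pan-neuronal scale the sign of Ptprn2 turned. The 9 lower genes became 3 without SOD1-G93A library 3. Cpe and Scg3 rose beside the astrocyte markers, and the part of that shift was not tested.

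Of the enzymes that degrade peptides, 2 of 12 rose and 1 fell with age, beside 13.5% and 12.9% of all genes. In ALS 2 of 13 rose and 2 fell, beside 18.4% and 15.5% of all genes, so these counts are near the background. Anpep, an aminopeptidase that acts on enkephalins, rose in both, from 2.99 ± 0.667 to 7.94 ± 2.51 CPM with age (SD, n = 8 each; log2 fold change 1.41) and from 2.08 ± 0.158 to 13.2 ± 4.10 in ALS (SD, n = 3 each; 2.66), beside the rise of the microglial markers. Npepps fell in both, by 0.19 with age and by 0.32 in ALS on the log2 scale. Thop1 rose by 0.17 with age, and Nln, which cleaves neurotensin, rose by 0.80 in ALS, where Ace fell by 0.52. On the pan-neuronal scale the ALS signs of Npepps and Ace turned.

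Other neuropeptide precursors mostly lay near the floor or passed no test. With age 0 of 16 tested passed, beside 26.4% of all genes. In ALS, where 18.4% of all genes rose and 15.5% fell, 1 of 18 rose and 2 fell. They were Nmb (neuromedin B), with a log2 fold change of 1.06 from 1.40 ± 0.540 to 2.92 ± 0.495 CPM, Calca, which gives CGRP and is also made in motor neurons, at -0.73 from 23.3 ± 5.36 to 14.1 ± 3.74, and Uts2b at -1.26 from 4.32 ± 1.13 to 1.81 ± 1.03 (SD, n = 3 each). The sign of Calca turned relative to pan-neuronal counts, and without control library 1, SOD1-G93A library 1 or SOD1-G93A library 3 there were 0 higher and 0 lower calls in this list.

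Among excitatory and inhibitory markers of the neurons that hold the members, the genes called were lower in ALS, and lower with age except for Pvalb. Over all genes 12.9% fell and 13.5% rose with age, and 15.5% fell and 18.4% rose in ALS. Of 14 dorsal horn excitatory markers 2 fell with age (Reln by 0.28 and Slc17a6 by 0.18 on the log2 scale) and 3 in ALS (Calb2 by 0.86, Slc17a6 by 0.82 and Cpne4 by 0.68). Of 12 inhibitory markers 4 fell and 1 rose with age (Gad2 by 0.34; Pvalb higher by 0.41), where leaving out young library 2 reduced the 4 to 1, and 7 fell in ALS, among them Slc32a1, the vesicular transporter of GABA and glycine, by 0.74 and Slc6a5, the glycine transporter, by 1.04. On the pan-neuronal scale the sign of Cpne4 turned. The 7 lower inhibitory markers became 2 without control library 2 or SOD1-G93A library 3. Below 0 in ALS were 8 of 14 excitatory and 11 of 12 inhibitory values. Summed excitatory markers read 658 to 705 CPM in controls and 446 to 606 in SOD1-G93A libraries, and inhibitory ones 1648 to 1684 and 1048 to 1419. In young and old libraries the excitatory sums were 658 to 715 and 598 to 652, and the inhibitory sums 1673 to 1782 and 1471 to 1762. The part of these shifts in the members' values was not tested. Markers of primary sensory neurons were at or below 16.8 CPM summed in the aging libraries, with 6 of 13 at or under the floor of 3 counts in every library, and at 18.1 to 28.8 CPM in the SOD1-G93A libraries against 12.6 to 14.8 in the controls. In ALS only 4 of the 13 passed the filter on low counts, and 2 of these rose and 0 fell. They were Piezo2, from 7.65 ± 1.19 to 15.2 ± 4.77 CPM, and Avil, from 0.533 ± 0.199 to 3.27 ± 1.06 (SD, n = 3 each). The higher sum is thus not shown for the list at large, and its source was not tested.

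**Figure D5:**
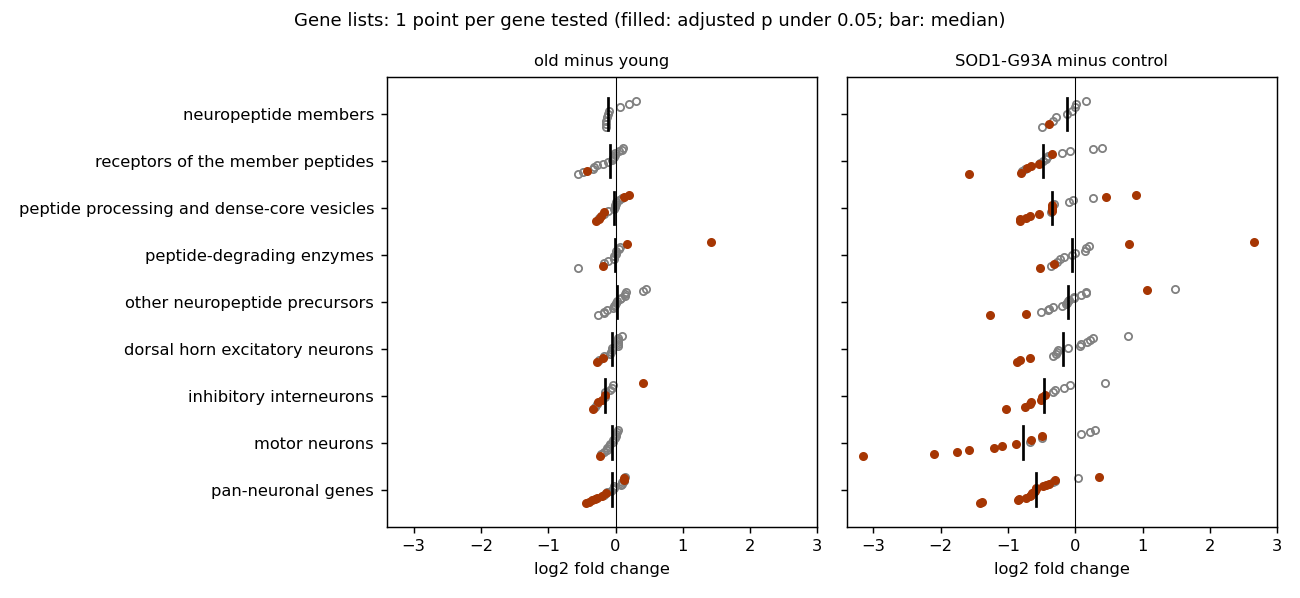
Log2 fold change of each tested gene in the members and 8 other lists, for old minus young mice (left) and SOD1-G93A minus control mice (right), with filled points for an adjusted p under 0.05 and a bar at the list's median. In ALS the pan-neuronal median is -0.59 and the receptor median -0.48, while the members' median is -0.12.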

How the data were processed

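RNA of whole extruded cords was sequenced from 22 mice, 1 library each. The authors aligned reads with STAR, summarized them with RSEM and used SAMtools 1.3 with the Ensembl 88 annotation of mm10. The deposited expected counts were whole numbers, without normalization between libraries. The deposited log2 values were log2(FPKM + 1), and FPKM was computed back from them. Columns were assigned to groups by name, and 0 were left unmapped. Names and positions came from the GENCODE M21 annotation of GRCm38, in which 21919 of 21995 genes were found. Libraries are numbered within a group in column order. No pair of libraries had identical counts.

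Differences were tested with edgeR 4.0.16 (quasi-likelihood, TMM factors, filterByExpr at 10 counts per library and 15 in total). P-values were adjusted by Benjamini-Hochberg across every gene in the fit, with a threshold of 0.05. Aging and ALS were fitted apart, and their difference in 1 fit of all libraries. CPM of single genes are counts scaled to TMM-adjusted library sizes. Summed CPM of gene lists are scaled to the total counts of each library, without TMM factors, so the 2 are on slightly different scales. Alternatives were DESeq2 1.42.0, limma 3.58.1 on log2 FPKM with pseudocounts of 1 and 0.1, other filters, all libraries in 1 fit, scaling to pan-neuronal counts, and leave-one-out. Correlations used 100000 resamples within groups. The scripts were tested on simulated data. The members and lists were chosen with earlier results of these data known. Other genes were named by a rule of at most 4 called genes per list and comparison with the smallest adjusted p, any receptor with a median count of at least 10, the 3 genes most like a member, and Sod1. Each library came from a separate mouse. Promoters came from RefSeq (GRCm38.p6), without Penk and Grp. R 4.3.3, Python 3.11.15, pandas 2.3.3, SciPy 1.17.1 and matplotlib 3.10.9 were used.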

Additional observations from a re-analysis of the deposited data

Results flagged for a closer look

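Among 52 groups of values examined, each from the 8 young or the 8 old libraries, 5 held a library whose gap to its nearest neighbour was large for the group's range, and chance flags about 1 in 20 groups. The check takes groups of 4 to 10 libraries, so the control and SOD1-G93A groups of 3 did not enter. Penk read 274 CPM in old library 6, above the other 7 old libraries, which reached 209. The same library had the lowest sums of its group for microglial markers, 683 CPM, and for astrocyte markers, 7262 CPM. Old library 3 had the lowest sum of dorsal horn excitatory markers, 598 CPM, and old library 5 the highest sum of Schwann cell markers, 151 CPM. The difference between the ALS and aging changes of Penk, -0.56 on the log2 scale relative to the bulk of genes, passed the test of the difference itself (edgeR adjusted p = 0.00876). In that fit 25.8% of all genes were called, 14.2% as lower, so 1 of 9 members is no more than the background. The Penk difference was not tested relative to pan-neuronal counts.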

How the results depend on the processing

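With age, 0 members were called higher by edgeR, DESeq2 and limma, 2 relative to summed pan-neuronal counts and 2 with the geometric mean of those genes (added after the data were seen), and 0 to 1 when 1 library was left out. Under pan-neuronal scaling the signs of Tac2 (0.0055), Sst (0.0259) and Grp (0.0019) turned. In ALS the 1 member called lower became 3 with DESeq2, 2 without a filter, 3 with all libraries in 1 fit, 0 with limma at either pseudocount, 0 with a log2 fold change beyond 1, 0 under both pan-neuronal scalings, and 0 to 3 in leave-one-out fits, while 6 were higher relative to summed pan-neuronal counts and 5 with their geometric mean. Shares of all genes called are given only for the main fits and the summed pan-neuronal scale. Counts under the other settings therefore have no background beside them and show nothing particular to the members. With the geometric mean the median gene itself moved by 0.096 log2 units with age and by 0.60 in ALS. Log2 fold changes in ALS then turned, on the summed and the geometric-mean scale, to 0.62 and 0.46 for Tac1, 0.42 and 0.25 for Penk, 0.75 and 0.59 for Pdyn, 0.35 and 0.19 for Sst, 0.23 and 0.0714 for Cck, 0.49 and 0.32 for Grp, 0.72 and 0.55 for Nts, 0.22 and 0.056 for Cckbr, 0.40 and 0.23 for Sort1, 0.44 and 0.28 for Npepps, and 0.24 and 0.0757 for Ace. On the summed scale alone they turned to 0.0192 for Tacr1, 0.0777 for Oprk1, 0.0654 for Ptprn2, 0.0123 for Calca, 0.0441 for Cpne4 and 0.16 for Tubb3, so that 10 of 26 other genes named as called in ALS changed sign, and 0 of 13 with age. This follows from dividing by a neuronal sum that was lower in SOD1-G93A libraries. Values near 0 also turned for Tac2 with all libraries in 1 fit (-0.0148), for Pdyn with at least 10 counts in every library (0.0106) and with limma (0.037 and 0.0442), for Nts with limma (0.0035 and 0.0037), and for the Tac1 difference with DESeq2 (0.006). Leave-one-out log2 fold changes in ALS ran from -0.23 to 0.0335 for Tac1, -0.0633 to 0.0754 for Tac2, -0.13 to 0.0794 for Pdyn and -0.11 to 0.0061 for Nts, and for the difference from -0.12 to 0.15 for Tac1, -0.35 to 0.0319 for Grp and -0.0055 to 0.15 for Nts. Members called lower in the difference numbered 0 to 3 in leave-one-out fits. Co-varying pairs past the adjusted threshold fell from 3 to 0 with log2 FPKM and numbered 1 to 4 in leave-one-out sets. Causes other than the scaling were not tested. Levels from CPM by length were not run. No paired analysis was possible because the columns carry no replicate numbers. Grp had the fewest counts, 23 to 77 per library.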
